A study of Mus musculus with 6 samples.

Results

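The Hox genes encode homeodomain transcription factors that lie in 4 genomic clusters, Hoxa, Hoxb, Hoxc and Hoxd, on mouse chromosomes 6, 11, 15 and 2. All 39 protein-coding genes whose symbol is Hoxa, Hoxb, Hoxc or Hoxd followed by a number were taken, out of 56923 gene identifiers counted, and antisense and other noncoding genes of the clusters were left out. The number in a symbol, from 1 to 13, is the paralog number. Genes that share it descend from a common ancestor and occupy like positions in the clusters.

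Messenger RNA was sequenced from 6 whole, snap-frozen kidneys of male mice, 3 control and 3 Pkd1 KO. Pkd1 encodes polycystin-1, a large membrane protein whose loss causes polycystic kidney disease. Pkd1 KO mice were Pkd1flox/flox.Pax8rtTA.Tet-O-Cre, in which the Pax8 promoter drives a doxycycline-dependent activator of Cre in kidney tubules, and control mice were Pkd1flox/flox.Tet-O-Cre without that activator. All 6 mice drank 2 mg/ml doxycycline in 5% sucrose over 14 days (postnatal day 28 to day 42) and were 10 weeks old when the kidneys were collected, so floxed alleles, Cre transgene and doxycycline were common to both groups. Cells in which the Pax8 promoter is not active are not a target of the deletion. The labels name separate samples without saying more of the animals, and p-values measure the spread between these samples.

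Hox genes give cells their position along the body axis. In the embryo they switch on in the order in which they lie, low paralog numbers first and toward the head, high ones later and toward the tail, and many adult tissues keep part of the pattern. In the developing kidney the Hox11 paralogs are needed for the ureteric bud to form, together with Eya1 and Pax2, and the Hox10 paralogs act in the stroma that surrounds the nephron progenitors. Hox proteins bind DNA together with TALE homeodomain partners (Pbx, Meis and Pknox), Polycomb complexes keep Hox clusters silent, trithorax complexes keep them active, and retinoic acid is a classical inducer of the low-numbered genes.

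The libraries held 45020173 to 62983791 gene counts. All 3 control libraries came from one sequencing project and all 3 Pkd1 KO libraries from another, and an effect of genotype cannot be told apart from one of project here. Pkd1, which checks the labels, stood at 30, 46.4 and 23.6 CPM (read counts scaled to library size) in controls and 8.77, 9 and 10 CPM in Pkd1 KO kidneys. The groups did not overlap, and the log2 fold change was −1.85 ± 0.24 (SE, n = 3 each, edgeR adjusted p = 0.00234), or −0.45 in the offset fit defined next. Of 18273 genes tested, 46.9% were called at an adjusted p under 0.05 in edgeR's quasi-likelihood test, 22.7% higher and 24.2% lower in Pkd1 KO kidneys. A second fit took out, for each library, the trend of counts with GC content and exon length across all genes (the offset fit). It tested 17785 genes and called 34.5%, of all those tested 18.4% higher and 16% lower.

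Most Hox transcripts that could be tested stood lower in Pkd1 KO kidneys, and 1 gene, Hoxa10, rose. Of the 39 genes, 31 had enough reads for a test. Hoxa10 was called higher, and 12 were called lower: Hoxa5, Hoxa6, Hoxa7, Hoxb3, Hoxb5, Hoxb8, Hoxc9, Hoxc10, Hoxd4, Hoxd8, Hoxd9 and Hoxd11. The called share was 41.9% against 46.9% of all genes, so Hox genes were called about as often as other genes. Their direction was less even, with 38.7% called lower against 24.2% of all genes and 3.23% called higher against 22.7%. The median log2 fold change of the 31 was −0.47, against 0.03 over all genes tested, and 27 of 31 lay below 0 (21 with upper-quartile scaling, which raised the median of all genes to 0.19 and called 47.7% of them, 28.9% higher and 18.9% lower). Values ran from −1.25 for Hoxd9 to 0.67 for Hoxa10. In the offset fit 1 member was called higher and 11 lower, with a median of −0.38 against 0.03 over all genes. Of the 13 calls, 10 held in that fit and 3 (Hoxb3, Hoxc9 and Hoxd8) did not, while Hoxc8 and Hoxd10 were called lower in it alone. None of the 18 uncalled members had an unadjusted p under 0.05 in edgeR's test. Through 14 other settings all 13 called members kept their direction, and 5 (Hoxa7, Hoxa10, Hoxb8, Hoxc10 and Hoxd9) kept their call in every one. Leaving out single libraries moved the number of Hox genes called lower from 12 to 7 without Pkd1 KO 1, 4 without Pkd1 KO 2 and 8 without Pkd1 KO 3, settings that called 17.2%, 14.6% and 16.5% of all genes lower. It was 9 without control 1, 12 without control 2 and 14 without control 3, where 18.3%, 24.5% and 28.8% of all genes were called lower.

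**Figure D1:**
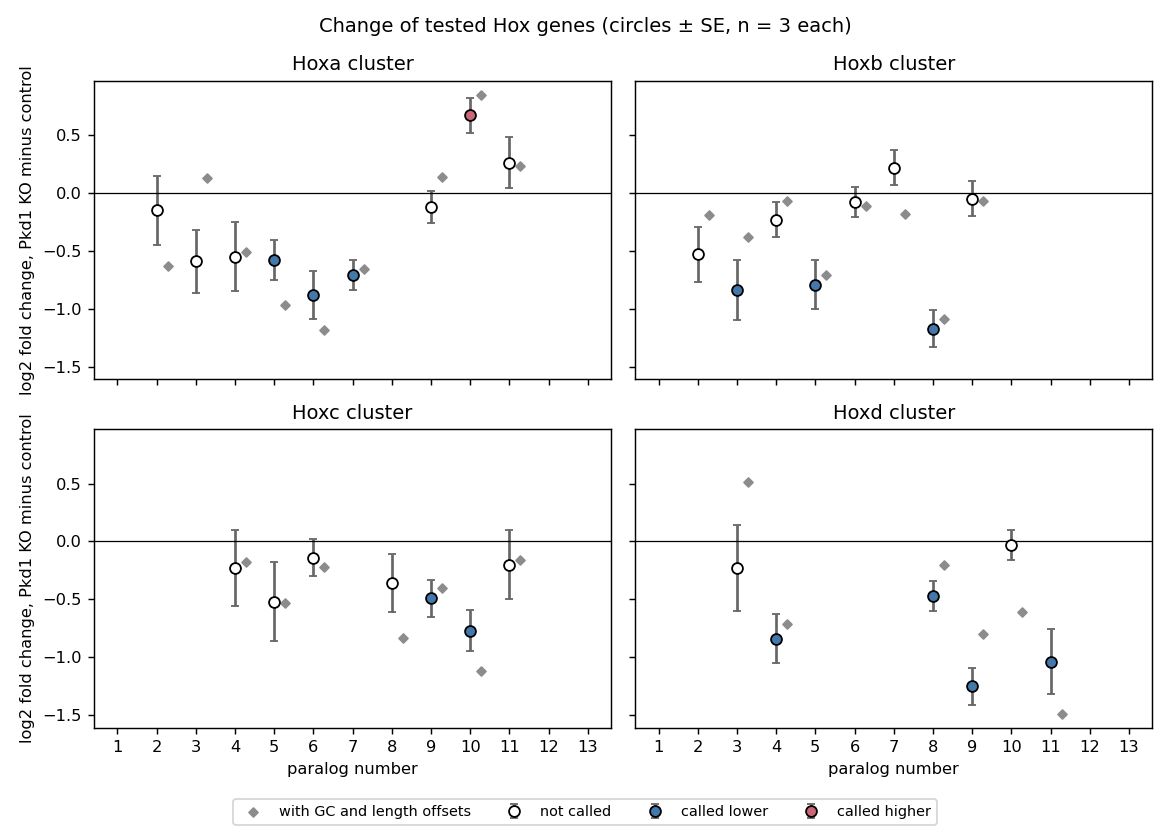
Log2 fold change of the tested Hox genes reported here, Pkd1 KO minus control, against paralog number, in 1 panel per cluster. Circles are edgeR estimates with bars of 1 SE (n = 3 each), filled where the adjusted p was under 0.05, and grey diamonds are the values with offsets for GC content and length; Hoxa10 at 0.67 is the one filled circle above 0, and Hoxd9 at −1.25 is the lowest.

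In whole-kidney RNA, fewer cells of a type and less RNA per cell cannot be told apart. Marker lists of several kidney cell types differed between the groups. Summed principal cell markers (8 genes) stood at 710 to 806 CPM in controls and 463 to 596 CPM in Pkd1 KO kidneys, thick ascending limb markers (5 genes) at 3485 to 4496 and 1658 to 2148, distal convoluted tubule markers (4 genes) at 1078 to 1352 and 415 to 504, and proximal tubule markers (8 genes) at 10986 to 17139 and 6518 to 7784. Not every marker fell. Called lower were 5 of 7 tested principal cell, 3 of 5 thick ascending limb, 3 of 4 distal convoluted tubule and 6 of 8 proximal tubule genes. None was called higher, and of all tested genes 24.2% were called lower and 22.7% higher. Kcnj1 (0.17) and Cldn16 (0.13) of the thick ascending limb, Pvalb (0.10) of the distal convoluted tubule and Fxyd4 (0.02) of principal cells stood above 0, uncalled. Intercalated cell (262 to 317 and 233 to 239 CPM), podocyte (215 to 394 and 164 to 190) and endothelial sums (517 to 555 and 354 to 377) were also lower without overlap. Of the 6 endothelial genes, 5 were called lower and Emcn higher (0.58, edgeR adjusted p = 0.0181). Sums were also taken without the gene whose group means differed most, a step added after seeing the data. Without Slc26a4, the intercalated cell sums overlapped (189 to 206 and 188 to 190 CPM), and they joined opposite changes. Slc4a1 (−1.96), Aqp6 (−1.68) and Slc26a4 (−1.03) were called lower and Atp6v1g3 (0.81) higher. T, B and NK cell sums (4.62 to 5.16 and 7.08 to 11.2 CPM) were higher without overlap. Macrophage sums (99.8 to 133 and 180 to 293 CPM) were higher through Lyz2, which had means of 23.1 and 150 CPM. The other 5 macrophage genes summed to 84.4 to 106 and 82.7 to 104 CPM and joined opposite changes. C1qb (1.00, edgeR adjusted p = 0.00763) and C1qa (0.63, edgeR adjusted p = 0.0338) were called higher. Csf1r was called lower (−1.01, edgeR adjusted p = 0.00297). Adipocyte sums (40.4 to 87.6 and 149 to 198 CPM) were higher through Fabp4, and overlapped without it (1.3 to 5.83 and 3.23 to 21.3). Sums of the fibroblast, pericyte and smooth muscle list (228 to 273 and 238 to 331 CPM) and of the urothelium list (15.6 to 31 and 13.7 to 39.6) overlapped. The fibroblast sum joined opposite changes among its 8 genes. Dcn (1.07) and Col3a1 (0.97) were called higher, and Pdgfra (−0.73), Pdgfrb (−1.25) and Myh11 (−2.00) lower. Adrenal and skeletal muscle sums stayed at or below 4.69 CPM, and Myh4 had no read in any library. The part of these differences in the Hox values was not tested.

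Transcript level per kilobase of exon, the scale on which genes can be set against each other, was concentrated at paralog numbers 4 to 10. The lower edge depends on how reads were counted, as explained below for Hoxb2 and Hoxb3. In controls numbers 2 and 3 held 0.397% and 0.763% of the summed Hox level. With both strand columns summed they held 2.84% and 3.04%, near the 3.64% of number 4, though some of these reads may be antisense. Hoxd8 was the most abundant Hox gene in both groups, at 63.8 ± 4.02 CPM per kilobase in controls and 46.2 ± 2.65 in Pkd1 KO kidneys (SD, n = 3 each). In controls Hoxa10 (23.7 ± 4.06), Hoxd9 (21.4 ± 2.54) and Hoxb7 (17.6) came next in level and were followed by Hoxa7 (16.3), Hoxb6 (16) and Hoxb8 (13.5). Hoxa10 and Hoxd9 overlapped in level within their spread. In Pkd1 KO kidneys Hoxa10 held the same rank at 37.7 ± 1.14 CPM per kilobase, Hoxb7 moved from 4th to 3rd, and Hoxd9 from 3rd to 8th at 9 ± 1.08. At the tail end of the clusters the level was at the floor. All 6 genes of paralog numbers 12 and 13 had too few reads to test, as had Hoxb1 and Hoxd1. Hoxb13, Hoxc12 and Hoxc13 had 0 counts in all 6 libraries, which allows up to 3 counts in 327590096, or 0.00916 CPM, for counting error only. Hoxa13, Hoxd12 and Hoxd13 had 1 count each, Hoxb1 had 2 and Hoxd1 had 29.

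**Figure D2:**
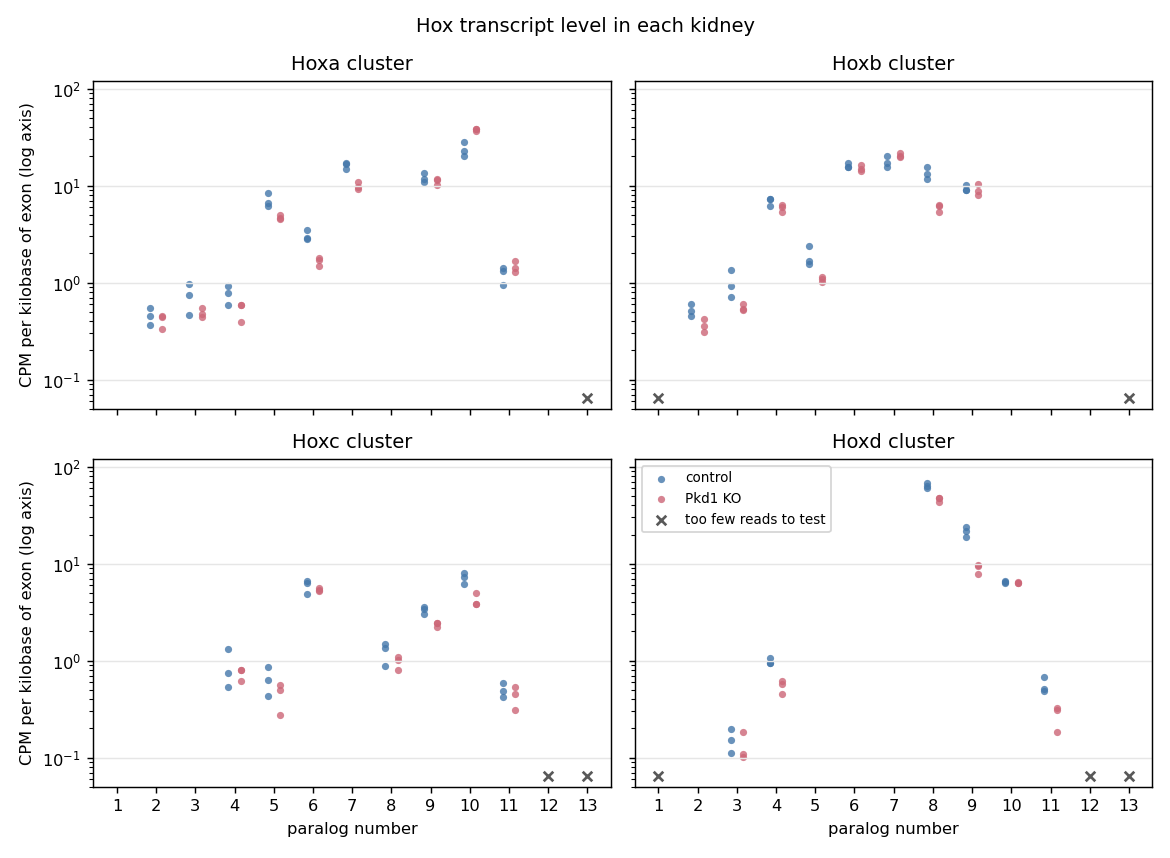
Level of the Hox genes reported here in each kidney, in CPM per kilobase of exon on a log axis, against paralog number, with controls in blue and Pkd1 KO in red (3 points each). Crosses at the bottom mark the 8 genes with too few reads to test, which include all of paralog numbers 12 and 13; the highest points are those of Hoxd8.

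Promoter sequence is shown for the gene that rose (Hoxa10, with both of its starts), for the pair that fell furthest (Hoxb8 and Hoxd9) and for the most abundant member (Hoxd8). The sequences are the 250 bases before each RefSeq start in GRCm38.p6, 5′ to 3′ on the gene's strand, an older build than the GRCm39 of the counts, and no count was tied to these positions. Capitals mark 4 motifs searched on both strands: CCAAT (the CCAAT box), TATAAA (the TATA box), TGATNNAT (a site type of Hox and Pbx pairs) and AGGTCA (the half-site of retinoic acid receptors). Matches did not overlap each other in these windows.
Hoxa10 (chr6:52234940-52235189, minus strand): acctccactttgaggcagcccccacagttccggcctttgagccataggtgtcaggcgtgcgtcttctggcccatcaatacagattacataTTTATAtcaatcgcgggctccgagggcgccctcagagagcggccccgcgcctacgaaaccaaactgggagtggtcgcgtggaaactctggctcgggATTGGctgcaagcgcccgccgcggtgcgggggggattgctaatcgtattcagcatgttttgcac
Hoxa10 (chr6:52240855-52241104, minus strand): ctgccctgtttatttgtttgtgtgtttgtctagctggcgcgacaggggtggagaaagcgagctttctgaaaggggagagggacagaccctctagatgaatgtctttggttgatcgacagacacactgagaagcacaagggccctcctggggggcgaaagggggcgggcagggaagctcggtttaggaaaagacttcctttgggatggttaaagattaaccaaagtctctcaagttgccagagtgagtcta
Hoxb8 (chr11:96281655-96281904, plus strand): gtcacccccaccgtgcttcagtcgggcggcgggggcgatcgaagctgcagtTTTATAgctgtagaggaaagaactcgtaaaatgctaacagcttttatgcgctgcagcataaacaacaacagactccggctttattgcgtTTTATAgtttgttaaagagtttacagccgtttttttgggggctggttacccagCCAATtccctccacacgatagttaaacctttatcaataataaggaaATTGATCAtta
Hoxd9 (chr2:74697513-74697762, plus strand): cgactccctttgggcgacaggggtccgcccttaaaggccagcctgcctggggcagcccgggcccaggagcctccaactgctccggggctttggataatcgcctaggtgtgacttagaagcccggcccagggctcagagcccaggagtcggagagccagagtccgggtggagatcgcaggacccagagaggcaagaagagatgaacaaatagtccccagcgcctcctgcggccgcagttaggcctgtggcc
Hoxd8 (chr2:74704365-74704614, plus strand): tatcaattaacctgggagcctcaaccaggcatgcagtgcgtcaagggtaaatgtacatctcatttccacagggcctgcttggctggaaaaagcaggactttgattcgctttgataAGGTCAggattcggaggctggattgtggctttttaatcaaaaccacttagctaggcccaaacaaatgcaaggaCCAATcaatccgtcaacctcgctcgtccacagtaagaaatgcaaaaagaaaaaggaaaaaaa
The Hoxb8 window held 2 TATAAA matches, 1 CCAAT match and 1 TGATNNAT match, the last one 11 bases before the start. The first-listed Hoxa10 window held 1 match each of TATAAA and CCAAT. Hoxd8 had 1 CCAAT and 1 AGGTCA match. The second Hoxa10 window and that of Hoxd9 had none of the 4. RefSeq windows were at hand for 22 of the 39 Hox genes (24 windows), of which 14 held CCAAT, 4 TATAAA, 4 TGATNNAT and 6 AGGTCA, or 58.3%, 16.7%, 16.7% and 25%. Among 32851 promoters of the same length the shares were 33.8%, 12.4%, 7.68% and 14%. CpG pairs numbered 20 and 7 in the Hoxa10 windows, 12 in Hoxb8, 13 in Hoxd9 and 6 in Hoxd8, beside a median of 12.5 over Hox windows and 6 over all promoters. A match describes letters only.

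In the Hoxa cluster the middle genes fell and Hoxa10 rose (10 tested, 1 higher, 3 lower, median −0.35). Beside the counts of this cluster and those below, 24.2% of all tested genes were called lower and 22.7% higher. Hoxa10 (ENSMUSG00000000938), a paralog of the kidney stroma genes, had 74.7, 65.6 and 91.8 CPM in controls and 119, 125 and 125 CPM in Pkd1 KO kidneys. Every Pkd1 KO value lay above every control value, and the 3 Pkd1 KO kidneys were closer together than the controls. Group means of 77.4 ± 13.3 and 123 ± 3.73 CPM (SD, n = 3 each) gave a 1.59-fold difference and a log2 fold change of 0.67 ± 0.15 (edgeR adjusted p = 0.00844, offset fit 0.85). Hoxa7 (ENSMUSG00000038236), of the trunk group, had 49.5, 47.8 and 43.2 CPM in controls and 31, 26.6 and 28.1 CPM in Pkd1 KO kidneys. The groups lay well apart, at a log2 fold change of −0.71 ± 0.13 (edgeR adjusted p = 0.00416, offset fit −0.66). Hoxa6 (ENSMUSG00000043219), its neighbour, was expressed at a far lower level, with 2.52, 3.04 and 2.45 CPM in controls and 1.56, 1.3 and 1.5 CPM in Pkd1 KO kidneys. No values overlapped (−0.88 ± 0.21, edgeR adjusted p = 0.0103, offset fit −1.18). Hoxa5 (ENSMUSG00000038253), known for its part in lung and axial patterning, had 15.7, 11.5 and 12.5 CPM in controls and 8.55, 9.4 and 8.65 CPM in Pkd1 KO kidneys, with control 1 the highest (−0.58 ± 0.17, edgeR adjusted p = 0.0199, offset fit −0.97). The Hoxa5 call was lost with upper-quartile scaling (edgeR adjusted p = 0.0685), without control 1 (0.0705) and without Pkd1 KO 1 (0.073), 2 (0.0581) or 3 (0.076), and that of Hoxa6 without Pkd1 KO 2 (0.0518).

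No other Hoxa gene was called. Hoxa9, a neighbour of Hoxa10 on the chromosome, was abundant, with 60.2, 75.4 and 65.6 CPM in controls and 65, 63.9 and 56.8 CPM in Pkd1 KO kidneys. Its groups overlapped (−0.12 ± 0.14, edgeR adjusted p = 0.517), and its value turned to 0.14 in the offset fit and 0.05 with upper-quartile scaling. Hoxa11, one of the Hox11 paralogs of kidney induction, had 2.99, 2.18 and 3.23 CPM in controls and 2.93, 3.28 and 3.8 CPM in Pkd1 KO kidneys (0.26 ± 0.22, edgeR adjusted p = 0.364). Hoxa4 had 1.24, 0.934 and 1.48 CPM in controls and 0.93, 0.623 and 0.931 CPM in Pkd1 KO kidneys, values that touched without overlap (−0.55 ± 0.30, edgeR adjusted p = 0.153). Hoxa3, active in head and neck patterning, had 4.49, 5.85 and 2.78 CPM in controls and 3.25, 2.84 and 2.67 CPM in Pkd1 KO kidneys. Control 3 lay among the Pkd1 KO values (−0.59 ± 0.27, edgeR adjusted p = 0.105), the gene was called lower without control 3 (−0.87, edgeR adjusted p = 0.00639), and the offset fit gave 0.13. Hoxa2 stayed below 1 CPM in every library and overlapped between groups.

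In the Hoxb cluster Hoxb8 and Hoxb5 fell and the lower call of Hoxb3 is uncertain in direction, while the Hoxb8 neighbours Hoxb6, Hoxb7 and Hoxb9 overlapped between groups (8 tested, 3 lower, median −0.38). Hoxb8 (ENSMUSG00000056648), also known from the myeloid lineage, had 34.6, 40.8 and 30.9 CPM in controls and 16.8, 14.3 and 16.2 CPM in Pkd1 KO kidneys. All Pkd1 KO values were far below the lowest control, 2.26-fold lower by the group means (−1.17 ± 0.16, edgeR adjusted p = 0.00234, offset fit −1.09). Hoxb5 (ENSMUSG00000038700) had 4.68, 6.62 and 4.35 CPM in controls and 2.83, 3.03 and 3.2 CPM in Pkd1 KO kidneys. Its groups did not overlap (−0.79 ± 0.21, edgeR adjusted p = 0.0157, offset fit −0.71), and the call was lost without Pkd1 KO 1 (0.059) or 2 (0.0582). Hoxb7, whose promoter is widely used to drive transgenes in the ureteric bud and collecting duct, had 26.3, 23.8 and 31.5 CPM in controls and 33.6, 30.4 and 30.9 CPM in Pkd1 KO kidneys. Control 3 lay among the Pkd1 KO values (0.22 ± 0.15, edgeR adjusted p = 0.254, offset fit −0.18), and the principal cell markers given above were lower in the same kidneys. Hoxb6 had 30.2, 30.6 and 33.6 CPM in controls and 27.9, 29.4 and 31.9 CPM in Pkd1 KO kidneys (−0.08 ± 0.13, edgeR adjusted p = 0.624, 0.08 with upper-quartile scaling). Hoxb9 had 23.5, 25.9 and 23 CPM in controls and 20.5, 22.6 and 26.5 CPM in Pkd1 KO kidneys (−0.05 ± 0.15, edgeR adjusted p = 0.78, but 0.11 with upper-quartile scaling and 0.02 without Pkd1 KO 1). Neither gene differed beyond its spread. Hoxb4, known from blood stem cells, had 15.9, 18.5 and 18.9 CPM in controls and 13.8, 16.3 and 15.3 CPM in Pkd1 KO kidneys, with overlap by 1 library (−0.23 ± 0.15, edgeR adjusted p = 0.212).

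The counts of Hoxb3 and Hoxb2 rested on a small part of their reads. The column that ignores strand drops a read that overlaps genes on both strands, and it kept 11.5% of the reads that the strand columns gave to Hoxb3 and 6.83% of those of Hoxb2. Hoxb3os, an antisense gene in the GENCODE M21 annotation, overlaps both. Hoxb3 (ENSMUSG00000048763), active in hindbrain and neck patterning, had 2.99, 5.69 and 3.95 CPM in controls and 2.57, 2.2 and 2.29 CPM in Pkd1 KO kidneys. No values overlapped (−0.84 ± 0.26, edgeR adjusted p = 0.0255), but the sum of both strand columns, which adds reads that may belong to Hoxb3os, gave −0.06 (edgeR adjusted p = 0.736). The share of Hoxb3 reads kept was 14.6% in controls and 8.58% in Pkd1 KO kidneys. Reads of the gene and its antisense partner cannot be told apart in a library without strand, so the direction of Hoxb3 is uncertain. Its call was also lost in the offset fit (−0.38, edgeR adjusted p = 0.241), with upper-quartile scaling (0.0523) and without Pkd1 KO 1 (0.0581), 2 (0.091) or 3 (0.0777). Hoxb2 had 2.1, 1.57 and 1.77 CPM in controls and 1.46, 1.07 and 1.25 CPM in Pkd1 KO kidneys (−0.53 ± 0.24, edgeR adjusted p = 0.0988), and −0.28 from the strand sum. Over the series of 39 genes, 10 kept under 95% of their reads, among them Hoxd3 (65.4%), Hoxa11 (66.4%), Hoxa3 (71.3%), Hoxa7 (73.5%), Hoxa4 (76.9%) and Hoxb5 (76.9%). With both strand columns summed, Hoxa7 (−0.56) and Hoxb5 (−0.75) were still called lower, and 12 of the 13 calls were kept (47.5% of all genes were called on that sum, 23% higher and 24.5% lower).

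**Figure D3:**
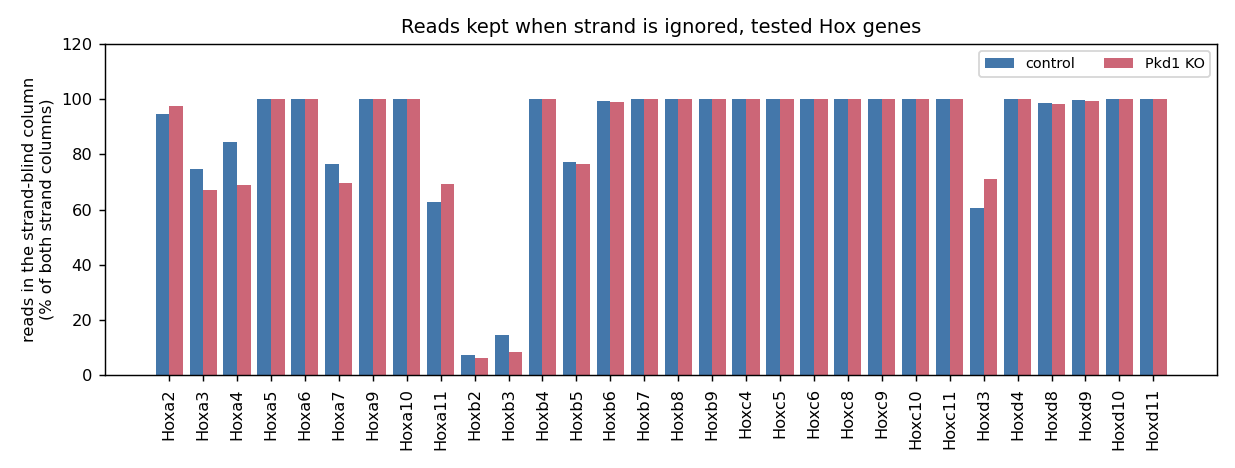
Share of the reads of both strand columns that the column ignoring strand kept, in percent, for the tested Hox genes reported here, with controls in blue and Pkd1 KO in red (reads of 3 libraries summed per bar, no error bar). The Hoxb2 bars stand at 7.37% in controls and 6.24% in Pkd1 KO kidneys, and the Hoxb3 bars at 14.6% and 8.58%. Most of the other genes stand at 100%.

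In the Hoxc cluster, the least abundant one, Hoxc9 and Hoxc10 were called lower among 7 tested genes (median −0.36). Hoxc10 (ENSMUSG00000022484), a paralog of Hoxa10, had 13.9, 15.3 and 11.7 CPM in controls and 9.44, 7.26 and 7.29 CPM in Pkd1 KO kidneys. Its change ran opposite to that of Hoxa10, with no overlap (−0.77 ± 0.18, edgeR adjusted p = 0.00844, offset fit −1.12). Hoxc9 (ENSMUSG00000036139), which helps set thoracic identity in the spinal cord, had 7.44, 8.61 and 8.28 CPM in controls and 6, 5.9 and 5.38 CPM in Pkd1 KO kidneys (−0.49 ± 0.16, edgeR adjusted p = 0.0293). The groups were apart, but the call was lost in the offset fit (−0.40, edgeR adjusted p = 0.0683), without a filter on low counts (0.0836), with upper-quartile scaling (0.11) and without Pkd1 KO 1 (0.0697), 2 (0.0841) or 3 (0.117). Hoxc6 had 15.3, 11.8 and 16 CPM in controls and 13.6, 12.8 and 12.6 CPM in Pkd1 KO kidneys, with control 2 the lowest of all (−0.14 ± 0.16, edgeR adjusted p = 0.481, 0.01 with upper-quartile scaling). Hoxc8 had 3.83, 4.22 and 2.49 CPM in controls and 2.85, 3.1 and 2.26 CPM in Pkd1 KO kidneys (−0.36 ± 0.25, edgeR adjusted p = 0.254). It overlapped through control 3 and was called lower without that library (−0.61, edgeR adjusted p = 0.0393) and in the offset fit (−0.83, edgeR adjusted p = 0.0432). Hoxc4 had 1.9, 3.37 and 1.37 CPM in controls and 2.06, 2.05 and 1.58 CPM in Pkd1 KO kidneys, a value set by control 2 (−0.23 ± 0.33, edgeR adjusted p = 0.587, but 0.17 without control 2). Hoxc5, whose exons overlap those of Hoxc10 in GENCODE M21, had 2.64, 1.97 and 1.32 CPM in controls and 0.849, 1.74 and 1.55 CPM in Pkd1 KO kidneys, with overlap (−0.52 ± 0.34, edgeR adjusted p = 0.24). Hoxc11, the Hox11 paralog of this cluster, averaged 1.01 ± 0.162 and 0.875 ± 0.231 CPM (−0.20 ± 0.30).

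The Hoxd cluster held 4 lower calls among 6 tested genes (median −0.65), on both sides of Hoxd10, which was not called. Hoxd9 (ENSMUSG00000043342) had 46, 51 and 40.1 CPM in controls and 20.8, 16.6 and 20.3 CPM in Pkd1 KO kidneys. Every Pkd1 KO value was far under the lowest control, 2.38-fold lower by the means (−1.25 ± 0.16, edgeR adjusted p = 0.00234, offset fit −0.80). Hoxd9 has the highest GC content of the tested Hox genes (61%), and the offset fit reduced its value by more than 1.5 times. Hoxd8 (ENSMUSG00000027102) had 187, 166 and 172 CPM in controls and 130, 118 and 132 CPM in Pkd1 KO kidneys. The groups were well apart (−0.47 ± 0.13, edgeR adjusted p = 0.0191), but the call was lost in the offset fit (−0.20, edgeR adjusted p = 0.181), with upper-quartile scaling (0.0955), without control 1 (0.0693) and without Pkd1 KO 1 (0.0588), 2 (0.0993) or 3 (0.0664). Hoxd10, a Hox10 paralog, had 12.1, 11.6 and 11.7 CPM in controls and 11.4, 11.6 and 11.6 CPM in Pkd1 KO kidneys. This was the smallest difference of any tested member (−0.03 ± 0.13, edgeR adjusted p = 0.857), yet the offset fit gave −0.61 (edgeR adjusted p = 0.0102) and upper-quartile scaling 0.13. Its GC content was 46.5%. Hoxd11 (ENSMUSG00000042499), the Hox11 paralog that acts with Hoxa11 in kidney and forearm, was scarce, with 2.86, 2.14 and 2.04 CPM in controls and 1.29, 0.771 and 1.36 CPM in Pkd1 KO kidneys. No values overlapped (−1.04 ± 0.28, edgeR adjusted p = 0.0164, offset fit −1.49), and the call was lost without control 1 (−0.91, edgeR adjusted p = 0.0597) or Pkd1 KO 2 (−0.82, edgeR adjusted p = 0.0633). Hoxd4 (ENSMUSG00000101174), a retinoic acid target in the hindbrain, had 2.76, 3.11 and 2.76 CPM in controls and 1.8, 1.34 and 1.67 CPM in Pkd1 KO kidneys (−0.84 ± 0.21, edgeR adjusted p = 0.0119, offset fit −0.71). In GENCODE M21 it shares 52.3% of its exonic sequence with genes of the same strand, Hoxd3 among them, and 11.8% with an antisense gene. The share of reads kept compares strand columns and cannot show reads dropped where genes of the same strand overlap. The Hoxd4 call was lost without Pkd1 KO 2 (0.059). Hoxd3 stayed below 1 CPM (−0.23 ± 0.37), with 0.51 in the offset fit.

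Summed over members, the Hoxd level dropped most, while the Hoxa and Hoxb values depended on how libraries were scaled. Hoxd sums were 98.4, 92.5 and 89.4 CPM per kilobase in controls and 64.4, 58.1 and 65.1 in Pkd1 KO kidneys, without overlap (log2 ratio of means −0.58). Hoxd8 held 68.3% of the Hoxd level in controls and Hoxd9 22.9%. In the offset fit Hoxd8 went from −0.47 to −0.20, without a call, and Hoxd9 from −1.25 to −0.80. Sums were not taken with the offsets, so they carry any trend with GC content or length. Hoxc sums were 20.1, 20.5 and 18.4 CPM per kilobase in controls and 15.5, 14.6 and 13.6 in Pkd1 KO kidneys (−0.44). Hoxb sums were 63.8, 68 and 68.6 CPM per kilobase in controls and 57.7, 57.1 and 60.7 in Pkd1 KO kidneys (−0.19, but −0.03 with upper-quartile scaling), also apart. Hoxa sums were 65.7, 63.2 and 67.7 CPM per kilobase in controls and 68, 68.7 and 68.1 in Pkd1 KO kidneys, apart by a narrow margin (0.06, but 0.22 with upper-quartile scaling and 0.00 without control 2). These sums are descriptions with no test, and 61.2% of all tested genes had groups that did not overlap, 31.2% higher and 30% lower. All Hox genes together stood at 245 ± 2.22 CPM per kilobase in controls and 204 ± 4.77 in Pkd1 KO kidneys (SD, n = 3 each). The Hoxa share of that level was 26.7% in controls and 33.5% in Pkd1 KO kidneys, and the Hoxd share 38.1% and 30.7%. Measured by the longest transcript instead of all exons, the Hoxa share was 31.7% and 38.7% and the Hoxd share 34.6% and 27.3%. Hoxa10 alone held 36% of the Hoxa level in controls and 55.2% in Pkd1 KO kidneys.

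**Figure D4:**
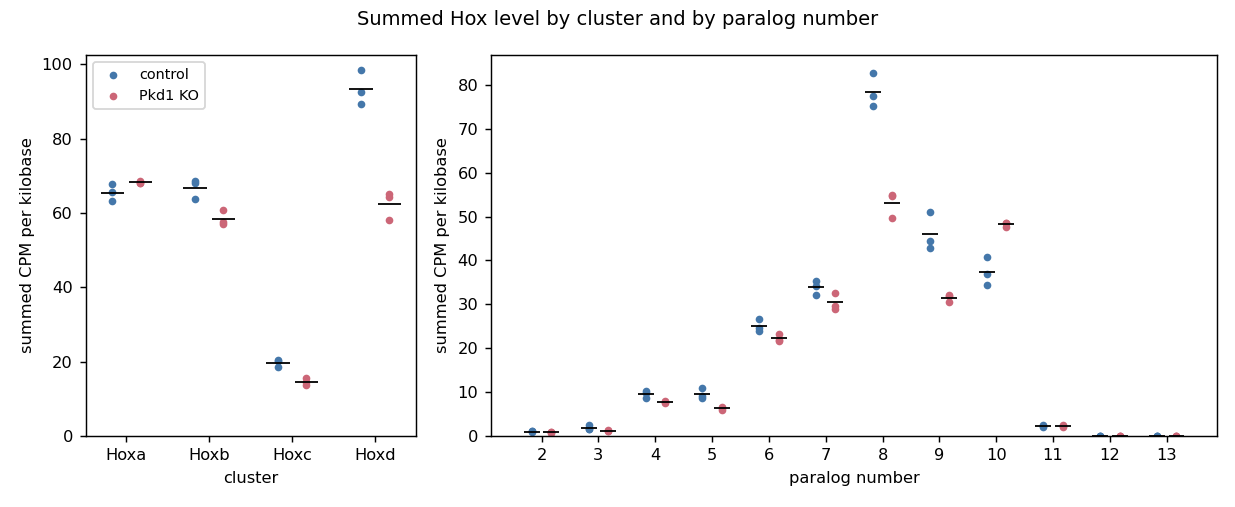
Summed level of the Hox genes in each kidney, in CPM per kilobase of exon, by cluster (left) and by paralog number from 2 up (right), with controls in blue, Pkd1 KO in red and bars at the group means (n = 3 each). Hoxd sums fall from 93.4 to 62.5 between the group means, while the sums of paralog number 10 go from 37.3 to 48.2.

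By position, the calls lay at paralog numbers 3 to 11. Of the 10 tested genes of numbers 1 to 4, 2 were called lower (median −0.38), of the 11 of numbers 5 to 8, 6 were called lower (median −0.52), and of the 10 of numbers 9 to 11, 1 was called higher and 4 lower (median −0.16). Over all tested genes 24.2% were called lower and 22.7% higher, and the difference between these position classes was not tested. Paralog number 8 gave the largest sum in both groups, 78.5 ± 3.89 CPM per kilobase in controls and 53.1 ± 3.01 in Pkd1 KO kidneys, of which Hoxd8 made up the most. Number 9 stood at 46.1 ± 4.29 and 31.5 ± 0.921 CPM per kilobase. With the TMM scaling used here, number 10 was the one group of the numbers 2 to 11 whose sum was higher in Pkd1 KO kidneys, at 37.3 ± 3.12 and 48.2 ± 0.56 CPM per kilobase, and its 3 genes went separate ways, with Hoxa10 up, Hoxc10 down and Hoxd10 at −0.03. Number 11, the group of kidney induction, was low and overlapped, at 2.28 ± 0.219 and 2.16 ± 0.27 CPM per kilobase, though Hoxd11 in it fell. The sums of number 7 overlapped too.

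Ratios of Hox genes within a library do not depend on how libraries are scaled to each other, but they do carry any trend with GC content or length. The pairs were chosen after the values were seen and carry no test. The ratio of Hoxa10 to Hoxa9 (each per kilobase) was 2.12, 1.48 and 2.39 in controls and 3.12, 3.35 and 3.76 in Pkd1 KO kidneys. The ratio of Hoxa10 to Hoxa7 was 1.33, 1.21 and 1.87 in controls and 3.37, 4.15 and 3.93 in Pkd1 KO kidneys. The ratio of Hoxb8 to Hoxb9 was 1.44, 1.54 and 1.32 in controls and 0.798, 0.615 and 0.596 in Pkd1 KO kidneys. The ratio of Hoxb8 to Hoxb7 went from 0.784 ± 0.216 to 0.292 ± 0.0161 (SD, n = 3 each), and the difference between the 2 log2 fold changes was −1.39, or −0.91 in the offset fit. The ratio of Hoxd9 to Hoxd10 was 3.24, 3.74 and 2.91 in controls and 1.56, 1.21 and 1.48 in Pkd1 KO kidneys, but the difference between their log2 fold changes shrank from −1.22 to −0.19 in the offset fit. The ratio of Hoxd9 to Hoxd8 went from 0.337 ± 0.0505 to 0.194 ± 0.0132. None of these ratios overlapped between groups. The ratio of Hoxc10 to Hoxc9 did overlap, at 2.15 ± 0.305 and 1.76 ± 0.22 (difference of log2 fold changes −0.28, or −0.72 in the offset fit). Between paralogs, the ratio of Hoxa10 to Hoxc10 was 3.14, 2.5 and 4.57 in controls and 7.35, 10.1 and 10 in Pkd1 KO kidneys.

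**Figure D5:**
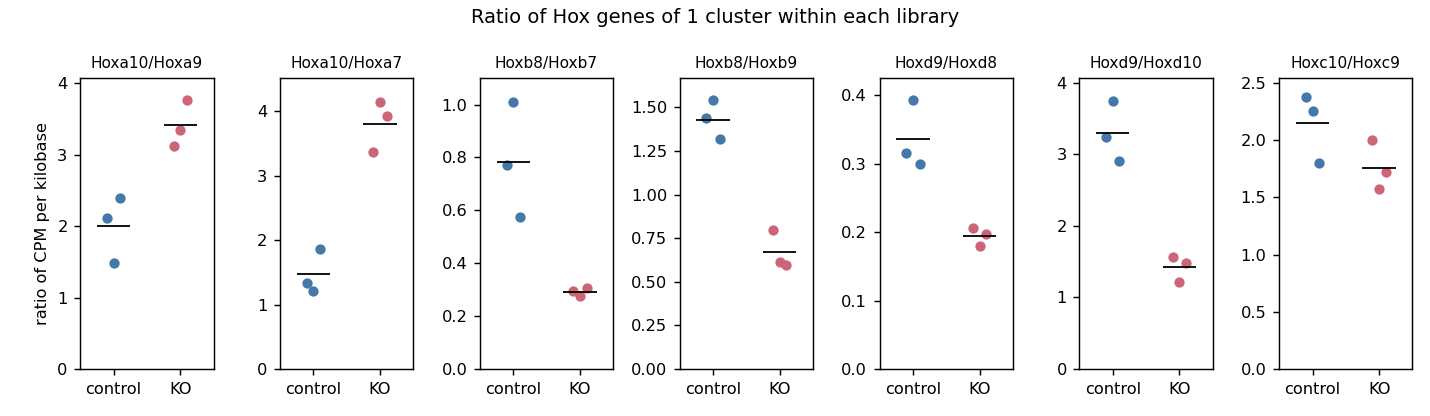
Ratio of the levels (CPM per kilobase of exon) of 2 Hox genes of 1 cluster within each library, 1 point per kidney, with controls in blue, Pkd1 KO in red and bars at the group means (n = 3 each). The ratio of Hoxa10 to Hoxa7 is higher and those with Hoxb8 or Hoxd9 on top are lower in all 3 Pkd1 KO kidneys, while that of Hoxc10 to Hoxc9 overlaps.

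Among the TALE partners of Hox proteins, 2 of 9 tested genes fell and none rose in edgeR's test (median −0.24, offset fit 0.19). The 22.2% called lower was near the 24.2% of all tested genes called lower, and 22.7% of all were called higher. Pknox1, a partner that forms trimers with Pbx and Hox proteins, had 27.6, 26.7 and 16.9 CPM in controls and 9.36, 8.69 and 8.24 CPM in Pkd1 KO kidneys (−1.44 ± 0.20, edgeR adjusted p = 0.00259, offset fit −0.96). No values of Pknox1 overlapped between the groups. The offset fit called 2 members of this list higher and 2 lower, and without control 1 or any 1 of the Pkd1 KO libraries the lower calls numbered 1.

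Of 26 Polycomb genes, 7 rose and 5 fell (median −0.12, offset fit 0.15). The called share of 46.2% was near the 46.9% of all genes. The subunits that rose most were Rnf2 (0.89 ± 0.15, offset fit 0.24), the ubiquitin ligase of PRC1, Ezh2 (0.88 ± 0.18, offset fit 0.85), the methyltransferase of PRC2, Rbbp4 (0.88 ± 0.21, offset fit 1.09), a histone-binding protein, and Pcgf1 (0.78 ± 0.16, offset fit 0.39). Ezh2 stood at 6.08, 6.95 and 6.96 CPM in controls and 10.2, 14.4 and 12.2 CPM in Pkd1 KO kidneys, with no overlap. Jarid2 (−1.35 ± 0.25, offset fit −0.77) fell. The offset fit called 9 Polycomb genes higher and 1 lower and lost the calls of Rnf2 and Jarid2 (edgeR adjusted p = 0.0925 and 0.0587). Without control 3, 10 were called lower, and without Pkd1 KO 2 or 3, 3 were. Of 17 trithorax and other activating genes, 10 fell and 1 rose (median −0.76; 64.7% called), but the median was −0.05 in the offset fit. Kdm6b (−1.65 ± 0.38), a demethylase of the Polycomb mark, and the methyltransferases Kmt2d (−1.60 ± 0.41), Kmt2b (−1.33 ± 0.30) and Ash1l (−1.33 ± 0.34) fell, and Dpy30 (1.47 ± 0.24, offset fit 0.68), a small subunit of the methyltransferase complexes, rose. Control 2 was the highest library for these 4 that fell, with Kmt2d at 44.9, 101 and 27.6 CPM in controls and 15.3, 20.8 and 21.2 CPM in Pkd1 KO kidneys. Without control 2 the values were −0.96 for Kmt2d and −0.82 for Ash1l, both still called. In the offset fit 3 were called lower. Ash1l was still among them (−0.69, edgeR adjusted p = 0.0307), whereas Kdm6b (−0.44), Kmt2b (−0.05) and Kmt2d (0.01) were not (edgeR adjusted p = 0.174, 0.794 and 0.972). Without Pkd1 KO 1, 6 were called lower, and Kmt2d (0.0577) and Ash1l (0.0546) lost their calls.

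Of 16 tested retinoic acid pathway genes, 3 rose and 4 fell (median −0.20, offset fit 0.50; 43.8% called, near the share of all genes). Aldh1a1, an enzyme that makes retinoic acid, had 7.83, 5.14 and 10.8 CPM in controls and 25.6, 39.2 and 35.4 CPM in Pkd1 KO kidneys (2.08 ± 0.28, edgeR adjusted p = 0.00234, offset fit 2.00). The 4 that fell were receptors: Rxra (−1.47 ± 0.24, offset fit −0.53), Rara (−0.82 ± 0.25), Rarg (−0.72 ± 0.19) and Rxrb (−0.40 ± 0.12). In the offset fit Rara (0.09) and Rarg (0.12) turned sign without a call, and Rxrb turned to a call in the other direction (0.52, edgeR adjusted p = 0.0243). Leaving out single libraries gave from 1 (without control 1 or Pkd1 KO 2) to 5 lower calls, and 2 without Pkd1 KO 1. The calls lost were those of Rara (edgeR adjusted p = 0.0621 without control 1, 0.0957 without Pkd1 KO 2 and 0.082 without Pkd1 KO 3), Rarg (0.0594, 0.0627 and 0.0684 without control 1, Pkd1 KO 1 and Pkd1 KO 2) and Rxrb (0.08, 0.0807, 0.105 and 0.0972 without control 1, Pkd1 KO 1, 2 and 3, and 0.14 with upper-quartile scaling).

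Genes that act with Hox10 or Hox11 proteins in kidney development fell in 9 of 14 tested cases and none rose (median −0.96, offset fit −0.62; 64.3% called). Pax2, a master regulator of the nephric lineage, had 29.1, 46.2 and 16.6 CPM in controls and 7.62, 5.9 and 10.4 CPM in Pkd1 KO kidneys (−1.94 ± 0.36, edgeR adjusted p = 0.00397, offset fit −0.76). Gfra1, the coreceptor of GDNF, had 7.03, 6.81 and 7.38 CPM in controls and 3.3, 2.26 and 2.97 CPM in Pkd1 KO kidneys (−1.32 ± 0.19, edgeR adjusted p = 0.00259, offset fit −1.06). Sall1 (−1.10 ± 0.25, offset fit −0.67) and Foxd1 (−1.49 ± 0.41, offset fit −0.81), which marks the stroma, fell too, and the Foxd1 call was lost in the offset fit (edgeR adjusted p = 0.102) and without Pkd1 KO 1 (0.0631) or 2 (0.0607), with −0.99 without control 2. Eya1, Six2 and Gdnf were among those with too few reads to test. Of 11 tested homeobox genes outside the clusters, 8 fell and none rose (median −0.82, offset fit −0.51; 72.7% called), among them Pou3f3 (−1.74 ± 0.25, offset fit −1.07), a factor of the loop of Henle and distal tubule. The Iroquois genes Irx3 (−1.31 ± 0.20, offset fit −0.58), Irx2 (−1.22 ± 0.19, offset fit −0.72) and Irx1 (−1.14 ± 0.22, offset fit −0.51), which pattern the middle of the nephron, fell as well. Thick ascending limb and distal convoluted tubule marker sums, though not every marker, were lower in the same kidneys, and their part in these values was not tested. The offset fit called 7 of the kidney development genes lower and 1 higher, and 6 of the other homeobox genes lower. Over all tested genes 46.9% were called in edgeR's test, 24.2% lower and 22.7% higher. In the offset fit 16% of all genes tested were called lower and 18.4% higher.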

How the data were processed

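The authors deposited raw counts, 1 table for each run of the sequencer, without normalization. Per the submitters' processing notes, cutadapt 4.0, FastQC 0.11.8, STAR 2.6.1e and the build GRCm39 were used, with an annotation not given in the sources used here. Per the labels' protocols, poly-A RNA was purified and copied with random primers. Of the counts, 22.9% to 26.3% per library stood in lines that name no gene and were left out. Reads fell evenly on the 2 strand columns (49.1% to 50% on the first), and the strand-blind column was analysed. Control 1 had 2 runs, which were summed. A chi-square per gene of 3.34 between them, against 23.5 or more between libraries of a group, left no libraries to merge. It ran from 68.3 to 230 between controls and from 23.5 to 29.4 between Pkd1 KO libraries, so the controls differed more among themselves. Symbols, exon lengths and GC content came from GENCODE M21 by identifier (52073 of 56923 matched).

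Genes that passed filterByExpr were tested in edgeR 4.0.16 (R 4.3.3) by quasi-likelihood after TMM scaling, with Benjamini-Hochberg adjustment and a threshold of 0.05. The SE of a log2 fold change is its size over the square root of F. CPM are counts scaled to the TMM library size, and levels between genes are CPM per kilobase of all exons of a gene. The offset fit added to the same test a loess surface (span 0.3) of each library's log2 CPM on GC content and log2 length, centred on its mean. The code was tested on simulated counts, the offset step excepted. Other settings were DESeq2 size factors, upper-quartile scaling, no count filter, DESeq2 (1.42.0), offsets, a replicate block and each library left out; offsets not centred and the sum of both strand columns were added after seeing the data.

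Values are given for each called Hox gene and each other one with a mean of at least 1 CPM, and for up to 4 called genes of a list in its main direction and 2 in the opposite one, with a log2 CPM averaging 0 or more, some in short form. The members and lists were chosen with earlier results of these data known. Results of some genes that this rule took are not given.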

Additional observations from a re-analysis of the deposited data

How the results depend on the processing

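The 13 Hox calls kept their direction in all 14 other settings, and 5 kept their call in every one. Hox genes called lower numbered 12, from 4 (without Pkd1 KO 2) to 14 with 1 library left out, and 8 to 12 in the other settings. Hoxa10 was the 1 higher call throughout.

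Under upper-quartile scaling the all-gene median went from 0.03 to 0.19 (log2), and 60.5% of calls were higher in place of 48.4%. With it Hoxa2 (0.02), Hoxa9 (0.05), Hoxb6 (0.08), Hoxb9 (0.11), Hoxc6 (0.01) and Hoxd10 (0.13) turned above 0, all without a call. Log2 ratios of cluster sums became 0.22 for Hoxa, −0.03 for Hoxb, −0.27 for Hoxc and −0.42 for Hoxd, and 1 TALE gene was called lower and 1 kidney development gene higher. With 1 library left out the ratios ran from 0.00 to 0.06 for Hoxa, −0.25 to −0.17 for Hoxb and −0.53 to −0.39 for Hoxc. Values of Hoxb9 then ran from −0.16 to 0.02 and of Hoxc4 from −0.53 to 0.17. Lower calls then numbered 1 to 3 of TALE, 3 to 10 of Polycomb, 6 to 10 of trithorax and 1 to 5 of retinoic acid genes, and higher calls of kidney development genes 0 to 1. DESeq2's own test called 8 Polycomb genes lower.

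With the offsets, uncalled Hox genes that turned sign included Hoxa3 (0.13), Hoxa9 (0.14), Hoxb7 (−0.18) and Hoxd3 (0.51). Some listed genes called lower without offsets turned sign too, among them Kmt2d (0.01), Rara (0.09) and Rarg (0.12), which lost their calls. Rxrb (0.52, edgeR adjusted p = 0.0243) turned to a call in the other direction. Calls became 2 higher for TALE genes, 1 lower for Polycomb, 3 lower for trithorax, 2 lower for retinoic acid and 1 higher for kidney development genes. A change shared by long or GC-rich genes would be removed by this fit, and which part of it is technical was not tested. Offsets not centred on their mean per library, an alternative added after seeing the data, gave 0.05 for Hoxa3, 0.07 for Hoxa9, −0.26 for Hoxb7 and 0.43 for Hoxd3. Over all genes 43.4% of calls were then higher, against 53.5% with centred offsets. The cause of the other changes was not tested.

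The sample titles do not say whether the numbers 1 to 3 pair the samples. Same-numbered control and Pkd1 KO libraries had deviations from their group means correlated at 0.04, −0.08 and −0.03. For libraries with unlike numbers the values ran from −0.10 to 0.10. With 3 samples in each group, this check cannot exclude a pairing. A fit with the replicate number as a block called 1 Hox gene higher and 9 lower, losing Hoxa5, Hoxb3 and Hoxc9, and 1 TALE gene lower. Counts per library set the precision. Of the untested members, 3 had no read in 327590096 gene counts.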

Other observations

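Noncoding genes of the Hox clusters were looked at beside the protein-coding ones, and the genes named here were chosen after their values were seen. Hotairm1, a long noncoding RNA of the Hoxa cluster, had 0.777, 0.692 and 0.74 CPM in controls and 1.48, 1.44 and 1.34 CPM in Pkd1 KO kidneys. It was called higher (0.95 ± 0.24, SE, n = 3 each, edgeR adjusted p = 0.0122), and the call was lost in the offset fit (0.68, edgeR adjusted p = 0.0559). The column that ignores strand kept 82.9% of its reads. Hoxb5os, antisense to Hoxb5, had 11, 9.34 and 13.7 CPM in controls and 14.2, 16.6 and 15.1 CPM in Pkd1 KO kidneys, above every control but uncalled (0.43 ± 0.18, edgeR adjusted p = 0.0701), and the offset fit gave 0.01 (edgeR adjusted p = 0.974). Hoxb3os had 3.09, 3.34 and 4.02 CPM in controls and 4.69, 4.67 and 4.07 CPM in Pkd1 KO kidneys (0.36 ± 0.19, edgeR adjusted p = 0.139), on 8.05% of its reads, and was called higher in the offset fit (0.62, edgeR adjusted p = 0.0297). Hoxb3os stood at −0.06 with both strand columns summed, the value that Hoxb3 had on the same sum. Hottip had no read in any library, and Hotair had 0 to 8 counts per library.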
